A study of Drosophila melanogaster with 6 samples.

Results

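Nuclear genes that copy and read out the mitochondrial genome were followed in Drosophila melanogaster indirect flight muscles depleted of M1BP. The set holds 9 genes of the 17494 in the counts table. They were taken by name for their role: tam and DNApol-gamma35, the subunits of the mtDNA polymerase, mtSSB and mtDNA-helicase of the replication fork, TFAM, mtTFB1 and mtTFB2 of transcription, and mTTF and mTerf3 of the termination factor family. Among them tam was also chosen by its low level upon M1BP RNAi, so its values below are a description and carry no test. For the other 8 the choice names a role and uses no measured value. It was nevertheless made with earlier results of these data known.

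RNA-seq was performed on 3 M1BP RNAi and 3 WT libraries, each from the pooled flight muscles of 6 to 8 pupae dissected 64 h after puparium formation (APF) and reared at 25 °C. In the M1BP RNAi animals, Mef2-GAL4 drove the UAS-M1BP RNAi #1 line, the weaker of the study's RNAi lines, and the WT animals carried Mef2-GAL4 without an RNAi transgene. Mef2-GAL4 is active in muscle from the myoblast stage on, so depletion covered the whole of muscle formation, and per the study the driver is not fully restricted to muscle. All RNAi data thus rest on a single transgene and driver. M1BP, a zinc finger protein, binds the Motif 1 element at the promoters of many broadly expressed genes.

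Mitochondria keep a small circular genome that encodes core subunits of the respiratory chain, together with the rRNAs and tRNAs needed to translate them, while every enzyme that replicates or transcribes this genome is made from nuclear genes and imported. A dedicated polymerase, built from a catalytic subunit and an accessory subunit, copies mtDNA behind a helicase while a single-stranded DNA binding protein coats the exposed strand. A phage-like RNA polymerase transcribes it with TFAM and a methyltransferase-like cofactor, and TFAM also packages mtDNA. In flies, the termination factor mTTF binds between clusters of genes on opposite strands, and long polycistronic transcripts are cut at the tRNAs. Flight muscle is among the tissues richest in mitochondria, which grow greatly in the pupa.

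The libraries held 42215400 to 54890681 counts. M1BP itself had 3.00, 3.57 and 2.63 CPM (counts per 1000000 counts of the library, with library sizes scaled by TMM) in M1BP RNAi muscles, against 8.19, 6.97 and 8.83 CPM in WT muscles. The log2 fold change was -1.38 ± 0.15 (SE; edgeR quasi-likelihood test, adjusted p = 9.54e-04). The call was lost with the replicate number as a block (adjusted p = 0.00502), under RLE scaling (0.00112), with the mtDNA genes left out (0.00128), with roX1 as a covariate (0.00423), and also when any of the 6 libraries was left out (edgeR adjusted p of 0.00198 to 0.00841), while DESeq2 gave 5.09e-10, the lowest of all alternatives. The libraries were not alike in roX1, a non-coding RNA made in males, at 30.7, 30.2 and 63.1 CPM in M1BP RNAi and 0.0414, 0.206 and 22.3 CPM in WT, so WT 1 and WT 2 held almost none of it. The summed level of 8 muscle markers was 100763 to 102778 CPM in M1BP RNAi and 137687 to 152542 CPM in WT. Mhc, Act88F and Mlc2 made up most of this sum. Of the 8, 1 was called, as lower (2.88% of all genes tested). Mef2 alone of them overlapped between groups, at 241, 220 and 241 CPM in M1BP RNAi and 252, 212 and 240 CPM in WT. Of the markers of other cell types, the 4 for fat body summed to 141 to 249 CPM in M1BP RNAi and 70.1 to 247 CPM in WT, the 4 for neurons to 12.2 to 16.4 CPM in M1BP RNAi and 13.8 to 20.1 CPM in WT, and no gene of either list was called. The sums for haemocytes, for trachea and tendon, and for myoblasts also overlapped between groups, with no gene called. The part of these differences in the results was not tested, beyond a fit with roX1 as a covariate. In pooled tissue, fewer muscle cells and less RNA per cell cannot be told apart.

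The catalytic subunit of the mtDNA polymerase is encoded by tam (tamas, FBgn0004406), on the minus strand of chromosome 2L from 13823980 to 13827772 (dm6), with 3 exons and an exon length of 3679 bases. It had 33, 27 and 34 counts in M1BP RNAi muscles, against 243, 156 and 238 counts in WT muscles. Scaled for library size, this was 0.596, 0.541 and 0.668 CPM in M1BP RNAi and 5.03, 5.36 and 5.99 CPM in WT. Every M1BP RNAi library lay far under every WT library, and within each group the libraries lay close together, at 0.602 ± 0.064 CPM for M1BP RNAi and 5.46 ± 0.49 CPM for WT (SD, n = 3 each). The log2 fold change was -3.17 ± 0.15 (SE), so the level upon M1BP RNAi was 0.111 times that of WT (95% interval 0.0865 to 0.142). Only 18 of the 8806 genes tested, tam among them, had a log2 fold change as low or lower. As tam was chosen for this fall, neither the interval nor this place is evidence for it. WT 3, which held roX1, had the highest tam of the WT libraries, and with roX1 as a covariate the log2 fold change was -3.36. The level of tam was also taken as CPM of the nuclear counts alone, which leaves out the mtDNA, but without TMM scaling. It was then 0.918, 0.817 and 1.00 in M1BP RNAi against 6.00, 6.50 and 7.46 in WT. These values differ from those above in both the total and the scaling, so the shift cannot be assigned to the mtDNA. In the edgeR fit with the mtDNA genes left out, the log2 fold change of tam was -3.14.

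**Figure D1:**
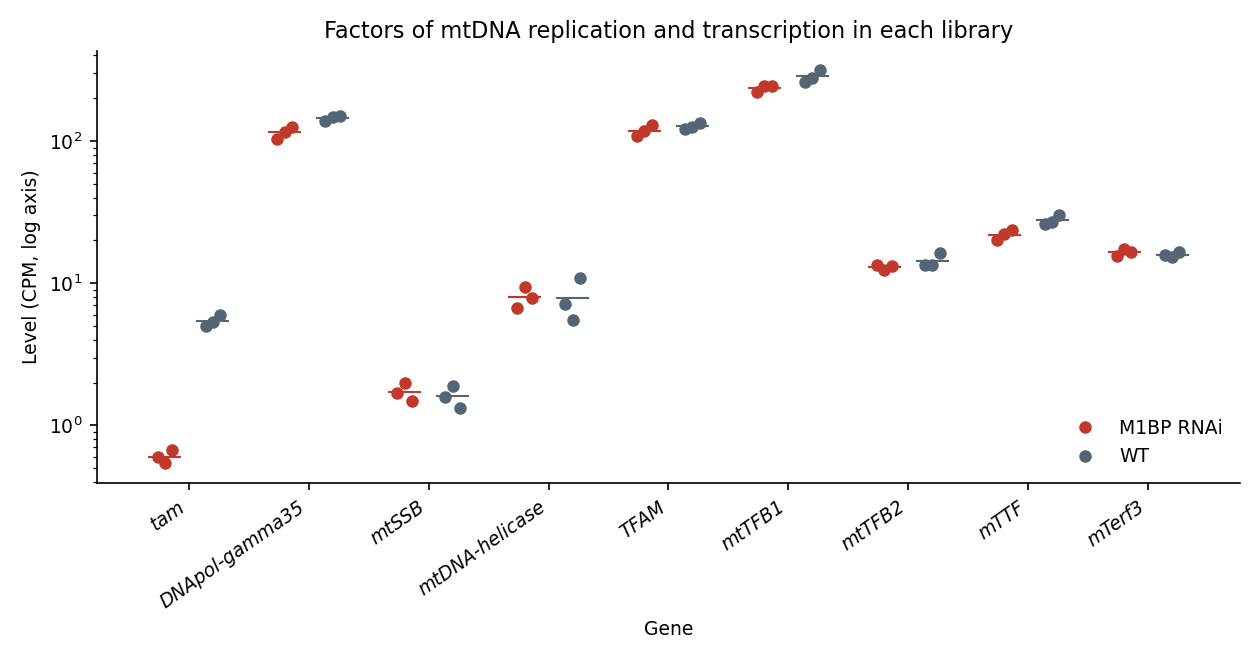
Level of each factor in each library, in CPM on a log axis, where points are libraries (M1BP RNAi red, left; WT grey, right) and lines are the means of the 3 libraries. The M1BP RNAi libraries sit between 0.541 and 0.668 CPM for tam and the WT libraries between 5.03 and 5.99 CPM, whereas for the other genes the groups overlap or lie side by side.

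The genes on either side of tam differed from each other. Arpc1, which encodes a subunit of the actin-nucleating Arp2/3 complex, lies 168 bases beyond the 5′ end of tam on the same strand. Its level was 13.7, 14.4 and 14.0 CPM in M1BP RNAi and 12.1, 14.6 and 13.6 CPM in WT, a log2 fold change of 0.06 ± 0.09 (edgeR adjusted p = 0.647). On the other side b (black), which encodes an aspartate decarboxylase that makes beta-alanine, abuts the 3′ end of tam on the opposite strand with a gap of 0 bases. Its level was 7.79, 2.44 and 3.30 CPM in M1BP RNAi and 16.9, 17.8 and 11.0 CPM in WT. The groups did not overlap, yet M1BP RNAi 1 stood apart from its replicates. With a log2 fold change of -1.75 ± 0.44, b was not called (edgeR adjusted p = 0.0240). Over the alternatives this p ran from 4.29e-05 in DESeq2, which is a call, to 0.181 with roX1 as a covariate, and without M1BP RNAi 1 the log2 fold change was -2.40.

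The accessory subunit of the same polymerase, DNApol-gamma35 (FBgn0004407), is encoded 3709 bases from tam on the same strand of 2L, from 13831482 to 13833105. It was measured at 103, 117 and 125 CPM in M1BP RNAi muscles, against 139, 148 and 149 CPM in WT muscles. All M1BP RNAi libraries were under all WT libraries, but the gap was small beside that of tam. The log2 fold change was -0.34 ± 0.09 (SE), that is 0.791 times the WT level (95% interval 0.685 to 0.913), and its edgeR adjusted p of 0.0264 misses the threshold of 0.001. GatC, which encodes a subunit of the mitochondrial glutamyl-tRNA amidotransferase, shares 100% of the exon bases of DNApol-gamma35 and had identical counts in every library, so the value belongs to the joint transcript. Per kilobase of exon, tam reached 0.247%, 0.198% and 0.228% of the level of DNApol-gamma35 in M1BP RNAi and 1.54%, 1.55% and 1.71% in WT. The mRNAs of the subunits were therefore unequal in abundance in both groups, and more so upon M1BP RNAi, which follows from the choice of tam.

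The remaining fork proteins showed no difference that this test could detect. mtSSB (FBgn0010438; 3R from 16204194 to 16205250, minus strand), the mitochondrial single-stranded DNA binding protein, had 1.70, 1.98 and 1.47 CPM in M1BP RNAi and 1.59, 1.89 and 1.33 CPM in WT. Its groups overlapped, with a log2 fold change of 0.10 ± 0.20 (edgeR adjusted p = 0.744), and a 95% interval of 0.771 to 1.497 times WT leaves room for a moderate difference in either direction. Of its exon bases 71.5% lie opposite those of CG31287, whose level stayed at or under 0.101 CPM in all libraries.

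mtDNA-helicase (FBgn0032154; 2L from 9891255 to 9893446, minus strand), the fly counterpart of Twinkle, was the member that varied most between replicates. It had 6.72, 9.39 and 7.82 CPM in M1BP RNAi and 7.16, 5.53 and 10.9 CPM in WT. The highest and the lowest value were both WT, so the groups overlapped fully. The log2 fold change was 0.02 ± 0.26 (edgeR adjusted p = 0.970), with a 95% interval of 0.664 to 1.54 times WT. WT 3, with 10.9 CPM, was also the WT library that held roX1. With roX1 as a covariate the log2 fold change of mtDNA-helicase was -0.52, with an adjusted p of 0.1804. Over all alternatives its adjusted p ran from 0.163 to 0.962.

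TFAM (FBgn0038805; 3R from 20575245 to 20577010, minus strand), which bends and packages mtDNA and helps the RNA polymerase to start, was abundant in every library. It had 108, 117 and 130 CPM in M1BP RNAi muscles, against 121, 126 and 134 CPM in WT muscles. The ranges overlapped, and the log2 fold change was -0.10 ± 0.09 (edgeR adjusted p = 0.424; 95% interval 0.805 to 1.08 times WT). The data therefore bound any difference in TFAM mRNA more tightly than for mtSSB or mtDNA-helicase.

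The cofactors mtTFB1 and mtTFB2 are related to rRNA methyltransferases. In flies mtTFB2 acts in mtDNA transcription, and mtTFB1 in mitochondrial translation. mtTFB2 (FBgn0037778; 3R from 10045574 to 10047260, plus strand) had 13.5, 12.4 and 13.2 CPM in M1BP RNAi and 13.4, 13.4 and 16.2 CPM in WT. WT 3 alone was high, and the log2 fold change was -0.14 ± 0.10 (edgeR adjusted p = 0.368). mtTFB1 (FBgn0261381; 3L from 11708979 to 11710570, plus strand) had 220, 244 and 244 CPM in M1BP RNAi and 261, 279 and 314 CPM in WT. Here the M1BP RNAi libraries were all under the WT libraries, with a log2 fold change of -0.27 ± 0.09 (edgeR adjusted p = 0.0632, not called). Ccdc56, which encodes a cytochrome c oxidase assembly factor, is read from the same transcript and had identical counts, so the level cannot be assigned to mtTFB1 alone.

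Of the termination factor family, mTTF (FBgn0028530; 2L from 14347239 to 14348790, minus strand) had 20.0, 22.0 and 23.5 CPM in M1BP RNAi muscles, against 26.1, 27.0 and 30.1 CPM in WT muscles. The groups did not overlap. The log2 fold change was -0.34 ± 0.10 (SE), or 0.789 times WT (95% interval 0.674 to 0.925), and the edgeR adjusted p of 0.0361 misses the threshold. mTerf3 (FBgn0037008; 3L from 20519590 to 20520772, minus strand), a relative whose fly and mammalian forms act in mitochondrial translation, had 15.5, 17.4 and 16.7 CPM in M1BP RNAi and 15.7, 15.2 and 16.6 CPM in WT. Its ranges overlapped, with a log2 fold change of 0.06 ± 0.08 (edgeR adjusted p = 0.643; 95% interval 0.908 to 1.20 times WT).

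Calls followed the thresholds of the study, an adjusted p of at most 0.001 together with a difference of 1.5-fold or more. Of the 8 factors other than tam, all passed the filter on low counts and 0 were called by edgeR, among 448 of 8806 genes called in all (5.09%; 254 lower upon M1BP RNAi, 2.88%, and 194 higher, 2.2%). DESeq2 also called 0 of the 8, among 1049 of 9466 genes (11.1%). At an unadjusted p under 0.05 the edgeR count was 3 of the 8, against 41.4% of all genes tested. The groups did not overlap for 3 of the 8, against 46.5% of all genes tested. These were DNApol-gamma35, mTTF and mtTFB1, each lower upon M1BP RNAi, so both shares were near those of genes at large. The median log2 fold change of the 8 was -0.12, beside -0.02 over all genes tested, and their median absolute log2 fold change was 0.12, beside 0.31. The count over all genes leaned on individual libraries, at 117, 70 and 88 without M1BP RNAi 1, 2 and 3, and 96, 164 and 477 without WT 1, 2 and 3, while the 8 factors gave 0 calls each time.

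**Figure D2:**
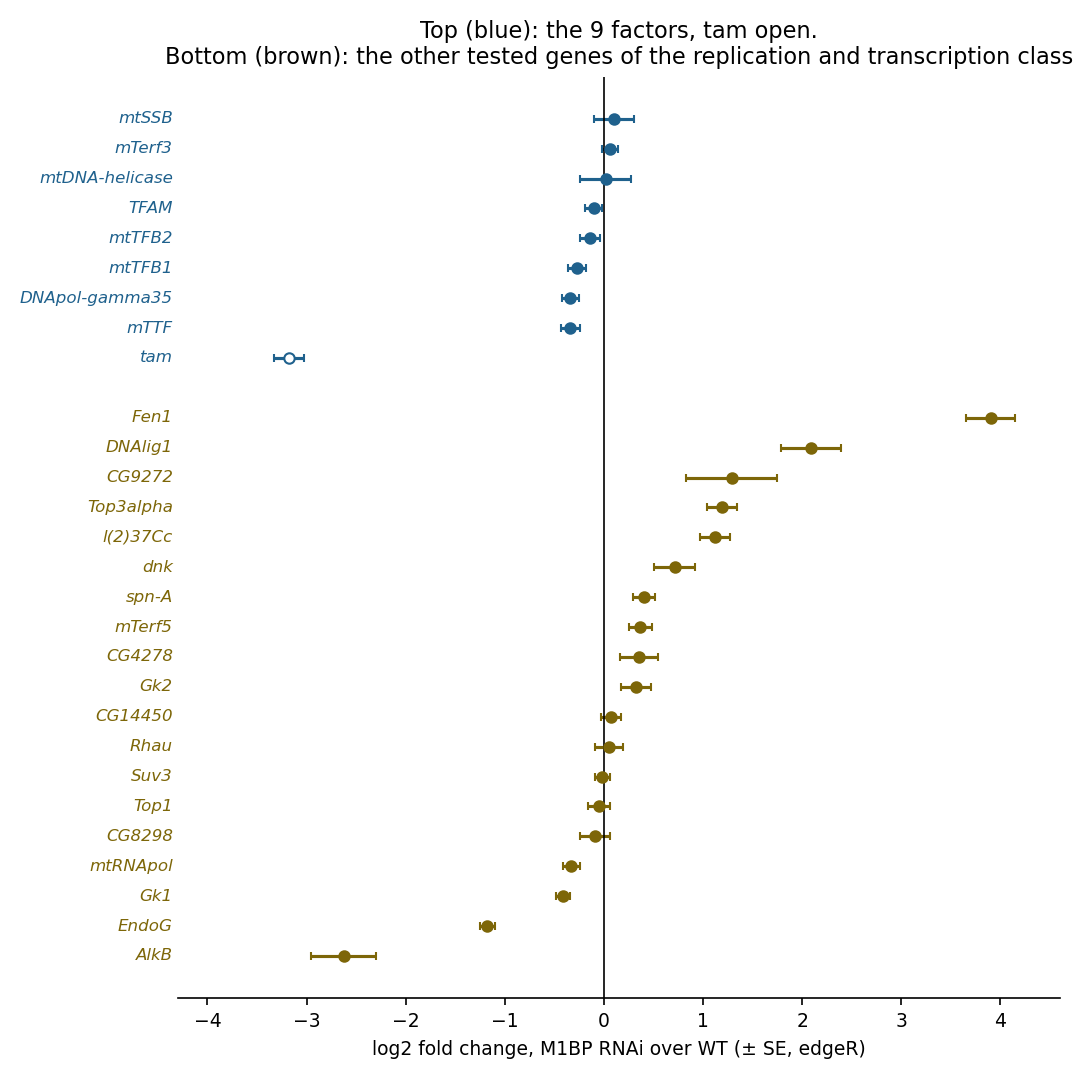
Log2 fold change (M1BP RNAi over WT) with its SE from edgeR, for the 9 factors (blue, top, with tam as an open circle because it was chosen on this value) and for the 19 other tested genes of the study's replication and transcription class (brown, bottom). Aside from tam at -3.17, the factors lie between -0.34 and 0.10, and Fen1 at 3.90 and EndoG at -1.18 are the called genes below.

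The factors spanned a wide range of abundance, and their order was the same in both groups. Given as CPM per kilobase of exon, which allows comparison between genes, the order in M1BP RNAi muscles was mtTFB1 (154 ± 9.02), TFAM (95.1 ± 8.79), DNApol-gamma35 (73.2 ± 7.03), mTTF (15.3 ± 1.23), mTerf3 (14.7 ± 0.898), mtTFB2 (8.63 ± 0.371), mtDNA-helicase (4.06 ± 0.684), mtSSB (2.99 ± 0.444) and tam (0.164 ± 0.017; SD, n = 3 libraries throughout). In WT muscles the order was mtTFB1 (186 ± 17.6), TFAM (102 ± 5.18), DNApol-gamma35 (92.6 ± 3.46), mTTF (19.3 ± 1.48), mTerf3 (14.1 ± 0.628), mtTFB2 (9.48 ± 1.06), mtDNA-helicase (4.001 ± 1.401), mtSSB (2.79 ± 0.483) and tam (1.48 ± 0.13). Thus tam was the least abundant of the set in either group. Neighbours in the order whose libraries overlapped were mtDNA-helicase and mtSSB in both groups, and mTTF and mTerf3 upon M1BP RNAi, where mTTF was closer to mTerf3 than in WT.

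The study's mitochondrial gene catalogue holds 24 further genes in its class of replication and transcription, of which 19 were tested and 5 had at most 7 counts in any library. Of the 19, edgeR called 1 higher and 1 lower (10.5% of them, against 5.09% of all genes tested). An unadjusted p under 0.05 was found for 12 of the 19 (41.4% over all genes), the groups did not overlap for 13 (46.5% over all genes), and the median log2 fold change was 0.33. Fen1, a flap endonuclease of nuclear replication and repair that also acts on mtDNA, rose to 4.61, 5.49 and 6.31 CPM in M1BP RNAi, against 0.352, 0.240 and 0.478 CPM in WT. Its log2 fold change was 3.90 ± 0.25 (edgeR adjusted p = 1.17e-04), and WT libraries held only 7 to 19 counts. EndoG, a mitochondrial endonuclease, fell to 42.9, 45.9 and 48.8 CPM in M1BP RNAi, against 100.4, 107 and 104 CPM in WT. Its log2 fold change was -1.18 ± 0.07 (edgeR adjusted p = 1.07e-04). Both calls were lost without M1BP RNAi 2, without M1BP RNAi 3 or without WT 1, each of which left 0 calls in the class. With a library left out, the log2 fold changes still stayed between 3.74 and 4.19 for Fen1 and between -1.23 and -1.13 for EndoG. With roX1 as a covariate the Fen1 call was also lost (log2 fold change 3.36, edgeR adjusted p = 0.00103), while EndoG kept its call (edgeR adjusted p = 7.44e-04).

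DESeq2 called 6 of the 19, with 4 higher and 2 lower, against 11.1% of all genes. These were Fen1, EndoG, l(2)37Cc, Top3alpha, AlkB and DNAlig1. l(2)37Cc, a prohibitin of the inner membrane, had 481, 558 and 595 CPM in M1BP RNAi and 233, 213 and 307 CPM in WT, a log2 fold change of 1.12 ± 0.15 with an edgeR adjusted p of 0.00242. Top3alpha, a topoisomerase, and DNAlig1, a DNA ligase, had log2 fold changes of 1.19 ± 0.15 and 2.09 ± 0.30 (edgeR adjusted p = 0.00185 and 0.00300), the second at levels of at most 0.976 CPM. AlkB, a homologue of a bacterial DNA demethylase, was at -2.63 ± 0.33 (edgeR adjusted p = 0.00175), from at most 0.140 CPM in M1BP RNAi and 0.893 CPM in WT.

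mtRNApol, the mitochondrial RNA polymerase that works with TFAM and mtTFB2, had 111, 115.3 and 116 CPM in M1BP RNAi muscles, against 151, 128 and 150 CPM in WT muscles. All M1BP RNAi values were under those of WT, with a log2 fold change of -0.33 ± 0.08 (edgeR adjusted p = 0.0257, not called), a size close to those of DNApol-gamma35 and mTTF. mTerf5, which acts with mTTF at the fly termination sites, had 24.0, 26.2 and 27.6 CPM in M1BP RNAi and 18.4, 18.7 and 23.2 CPM in WT. Its log2 fold change was 0.37 ± 0.12 (edgeR adjusted p = 0.0522), the opposite sign to mTTF, and with roX1 as a covariate it was 0.10, with an adjusted p of 0.558 (range over the alternatives 0.00516 to 0.558).

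To find genes with the profile of tam, each gene's log2 CPM, with no offset added, was centred on its mean over the 6 libraries, and the 8703 other tested genes with a count in every library were ranked by the root mean square distance to tam. The nearest were l(3)neo43 (distance 0.0583 log2 units), CG32267 (0.109), CG7461 (0.110), CG5641 (0.134) and CG4908 (0.179). l(3)neo43 had 3.41, 3.45 and 4.11 CPM in M1BP RNAi and 28.7, 33.1 and 36.0 CPM in WT. All 5 were low in every M1BP RNAi library, with log2 fold changes between -2.85 and -3.37, and none is among the 9 factors. Both follow from ranking by likeness to tam, which was itself chosen for its fall. The list depends on the offset, and the ranking with no offset was added after seeing the data. With 0.5 CPM added before the log, which damps the change of a gene as low as tam, the nearest were ND-B14, PRAS40, CG7638, CG1637 and Dcr-1, and the lists shared 0 genes. Without the offset these ranked 24, 22, 18, 14 and 13. Among the 8 other factors the nearest to tam were mTTF, at rank 1590, and DNApol-gamma35, at rank 1608, and with the offset they ranked 1449 and 1432.

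The transcripts of the mitochondrial genome were then set beside the factors in each library. The 37 mtDNA genes took 15.1%, 23.4% and 19.7% of all counts in M1BP RNAi, against 26.2%, 44.2% and 26.3% in WT. The groups did not overlap, with means of 19.4 ± 4.18% for M1BP RNAi and 32.2 ± 10.4% for WT (SD, n = 3 each). The difference of -12.9 percentage points had a two-sided exact permutation p of 0.1, the smallest that 3 against 3 libraries allow (0.133 adjusted over 4 mtDNA measures), and it was -6.86 points without WT 2. Since the mRNA was selected by its poly(A) tail, these shares measure polyadenylated transcripts, not mtDNA copies.

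Within the groups, the order of the libraries by mtDNA share was not that by tam. With 3 libraries per group, and only 27 to 34 tam counts upon M1BP RNAi, a relation cannot be judged from these orders. M1BP RNAi 2 had the highest mtDNA share and the lowest tam (0.541 CPM) of its group, and WT 2, with the highest share of all, was the middle WT library for tam (5.36 CPM) and for TFAM (126 CPM). Protein-coding mtDNA genes alone took 9.20 ± 2.62% of counts in M1BP RNAi and 12.5 ± 3.998% in WT (SD, n = 3 each), with overlapping groups and a two-sided exact permutation p of 0.4. Within pairs of the same replicate number, this share differed by -3.78, -5.72 and -0.55 percentage points (M1BP RNAi minus WT). The large rRNA made up 52.0 ± 4.48% of mtDNA counts in M1BP RNAi and 60.8 ± 0.581% in WT (n = 3 each, exact permutation p = 0.1, adjusted 0.133). The tRNA genes went the other way, at 0.752 ± 0.008% of mtDNA counts in M1BP RNAi and 0.250 ± 0.041% in WT, with no overlap (n = 3 each, exact permutation p = 0.1, adjusted 0.133). This share is relative to mtDNA counts, which were themselves lower upon M1BP RNAi. By log2 fold change, 14 of the 19 tested tRNA genes were above 0 and 5 below. Among the 5 was trnL2, the tRNA gene with the most counts (-0.17 ± 0.23). Each of these 4 mtDNA measures had the same sign in 3 of 3 pairs, where an exact sign-flip test cannot go below 0.25.

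**Figure D3:**
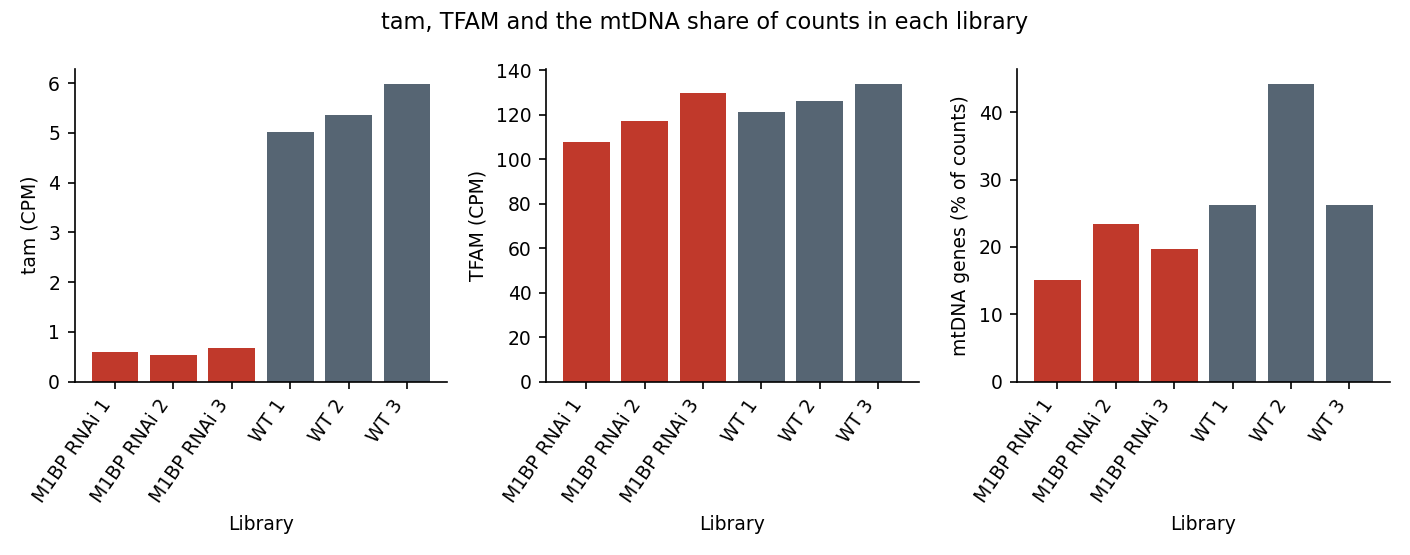
Level of tam and of TFAM (both in CPM) and the share of counts on the 37 mtDNA genes (in %), with a bar for each library (M1BP RNAi red, left; WT grey, right). tam is low in all 3 M1BP RNAi libraries (0.541 to 0.668 CPM), TFAM overlaps between groups, and the mtDNA share is 15.1% to 23.4% upon M1BP RNAi and 26.2% to 44.2% in WT, led by WT 2.

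The mtDNA genes fall into 10 runs of neighbours on the same strand, and mTTF is known to bind at the borders between trnE and trnF and between trnS1 and ND1. The run from COX1 to trnE held 33.7%, 37.9% and 40.1% of mtDNA counts in M1BP RNAi, against 30.3%, 30.2% and 30.0% in WT. The run from ND1 to the small rRNA, which includes the large rRNA, held 60.1%, 53.3% and 51.7% in M1BP RNAi and 62.7%, 62.7% and 62.0% in WT. Neither pair of groups overlapped, and each had an exact permutation p of 0.1 (0.143 adjusted over the 10 runs). All runs share the same total, so the higher share of the first and the lower share of the second are not separate results. Over protein-coding mtDNA genes only, the difference of the first run was 1.44 in place of 7.03 percentage points (exact permutation p = 0.4), and that of the second was 1.03 in place of -7.42 points (exact permutation p = 0.2). Of the runs that lie between them, those with protein-coding genes overlapped between groups. From trnF to ND4L the share was 2.98 ± 0.62% in M1BP RNAi and 2.62 ± 0.31% in WT, and from ND6 to trnS1 it was 4.68 ± 0.80% in M1BP RNAi and 4.69 ± 0.28% in WT (SD, n = 3 each; exact permutation p = 0.4 and 1.0). Over protein-coding genes only, the difference of the second was -2.12 points, with an exact permutation p of 0.1. The single-gene runs trnT and trnP did not overlap and were higher in M1BP RNAi, at 0.000396% against 0.0000637% in WT for trnT and 0.000539% against 0.000116% in WT for trnP (exact permutation p = 0.1 each, 0.143 adjusted). Before COX1, the run from trnM to trnW, which holds ND2, was 0.102 ± 0.013% in M1BP RNAi and 0.055 ± 0.005% in WT. It did not overlap (exact permutation p = 0.1, 0.143 adjusted). Over protein-coding genes only, its difference was 0.078 points (exact permutation p = 0.1). The runs trnQ and trnC to trnY were also higher in M1BP RNAi with no overlap, while trnI overlapped.

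Gene by gene, edgeR called 0 of the 13 protein-coding mtDNA genes, against 5.09% of all genes tested, and DESeq2 also called 0, against 11.1%. An unadjusted edgeR p under 0.05 was found for 4 of the 13 (41.4% over all genes). Of the 13, 11 had log2 fold changes below 0 (4528 of 8806 over all genes), and their median was -0.79 (-0.02 over all genes). With the replicate number as a block edgeR still called 0 of the 13. The blocked adjusted p ran from 0.00491 for CYTB (0.0571 without the block) to 0.951 for ATP8. Of the 22 tRNA genes 19 were tested, 14 had log2 fold changes above 0 (4278 of 8806 over all genes), and 1 was called. This was trnV, which lies between the rRNA genes and rose to 80.8, 140.5 and 103 CPM in M1BP RNAi, against 0.662, 0.515 and 0.529 CPM in WT. Its log2 fold change was 7.55 ± 0.28 (edgeR adjusted p = 2.41e-05). The small rRNA next to it had 261, 805 and 591 CPM in M1BP RNAi and 28.1, 43.8 and 42.6 CPM in WT (log2 fold change 3.86 ± 0.44, edgeR adjusted p = 0.00115), and the large rRNA on its other side had a log2 fold change of -1.61 ± 0.35 (edgeR adjusted p = 0.0151). With the replicate block the calls were 3 tRNAs and the small rRNA, all higher, among 191 genes called in all. DESeq2 called 6 tRNAs and the small rRNA, all higher, against 11.1% of all genes. Mature tRNAs carry no poly(A) tail, and which transcripts the counts on tRNA genes came from was not tested. Genes of the same run thus had log2 fold changes of both signs, also within the run from COX1 to trnE.

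**Figure D4:**
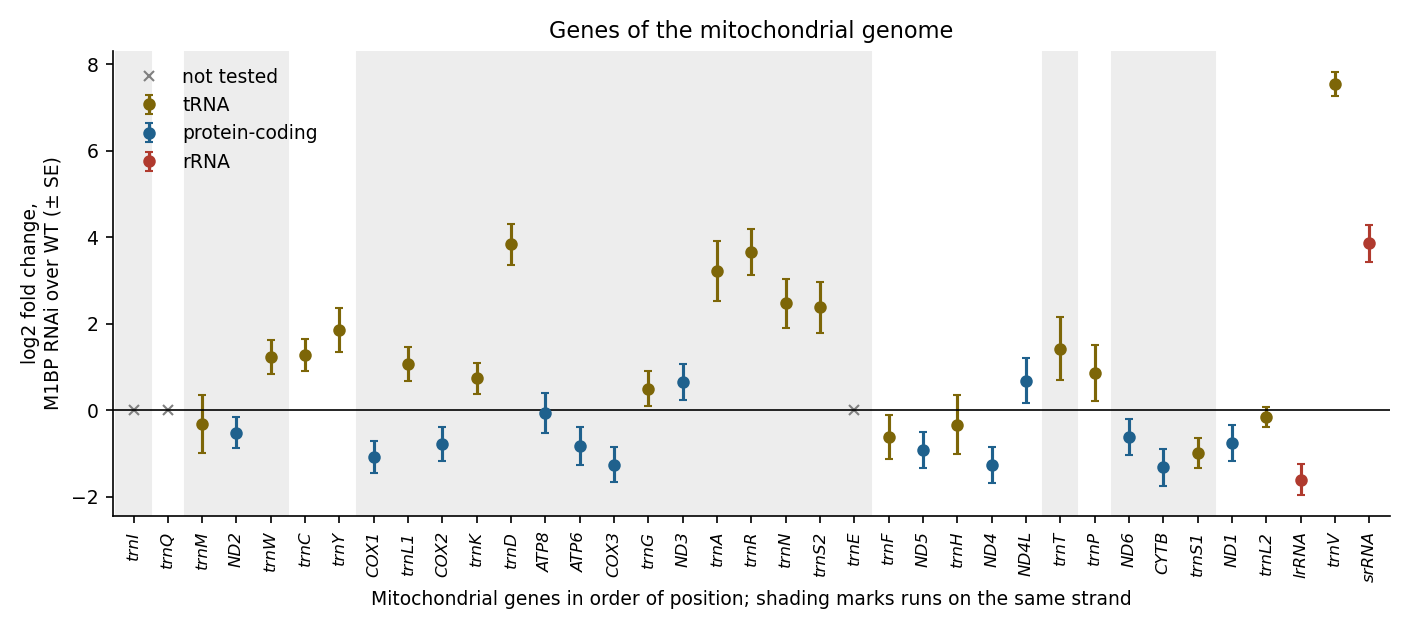
Log2 fold change (M1BP RNAi over WT) with its SE from edgeR for the mtDNA genes in order of position, coloured by kind (protein-coding blue, rRNA red, tRNA brown; crosses mark genes not tested), with alternate shading for the 10 runs of neighbours on the same strand. trnV at 7.55 and the small rRNA at 3.86 lie above 0 beside the large rRNA at -1.61, and 11 of the 13 protein-coding genes lie below 0.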

How the data were processed

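The sample titles gave the groups and replicate numbers. The authors deposited raw counts per gene, made with featureCounts (Subread 2.0.3) from uniquely mapped reads on dm6 after bcl2fastq 2.17.1.14, per the labels and the processing notes; the libraries were poly(A)-selected and stranded, and the aligner is not given in the sources used here. A second deposited table, made with DESeq2, holds the authors' own fold changes and p-values; only its gene names were used. The 9 members, the gene lists and the tests were chosen with earlier results of these data known.

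Genes were tested with edgeR 4.0.16 (R 4.3.3, quasi-likelihood, TMM scaling, the tool's own filter on low counts, Benjamini-Hochberg adjustment over the 8806 genes tested), with M1BP RNAi and WT as the groups. The standard error is the log2 fold change divided by the square root of F, and the intervals are 95% intervals from the same fit. DESeq2 1.42.0 was an alternative. The detection floor of 3 counts equals 0.0542 to 0.103 CPM. Shares of counts were compared with two-sided exact permutation tests (scipy 1.17.1). The scripts were tested on simulated data.

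Named genes were M1BP, the 9 members, the called genes of the study's class with mtRNApol and mTerf5, the genes next to tam or sharing exons with a member, the 5 genes nearest to tam (on log2 CPM with no offset) and the mtDNA genes. The ranking by likeness to tam was first made with an offset of 0.5 CPM. The ranking with no offset, its genes and the differences within replicate pairs were added after seeing the data. The genes that DESeq2 called in the class (l(2)37Cc, Top3alpha, AlkB, DNAlig1), the rRNAs and roX1 were named after their values were seen.

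The study names triplicate RNA preparations but not separate crosses, so p-values measure the spread between these libraries. Same-numbered libraries deviated together from their group means (r of 0.51, 0.27 and 0.44 over 2956 genes). The r for different numbers, -0.42 to 0.08, is not independent of these, as the deviations within a group cancel out. A pairing by replicate number thus rests on the data, not on the labels. The main tests did not use it, and it entered only through the replicate block and the differences within pairs. No 2 libraries agreed within sampling noise. In a principal component analysis the first component (61.0% of variance) separated the groups and the second (21.6%) set WT 3 apart. Promoter sequences were not used here.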

Additional observations from a re-analysis of the deposited data

How the results depend on the processing

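Of 336 recomputed values for the named genes, 311 kept their direction and their side of the threshold. Of the rest, 17 lost a call, 1 gained one and 7 changed sign. All 17 lost calls were of M1BP, Fen1 or EndoG. Genes chosen for likeness to tam, and factors far from the threshold, could hardly cross it. The 311 is therefore no measure of robustness. The log2 fold change of tam lay between -3.36 (roX1 covariate) and -3.05 (without WT 3). Genes called, 448 in all, numbered 1049 with DESeq2, 191 with the replicate block, 170 with roX1 as a covariate, 2701 at the looser threshold (adjusted p of 0.05, any fold), and 70 to 477 with a library left out. Of the 8 other factors 0 were called throughout, except that 2 (DNApol-gamma35 and mTTF) passed at the looser threshold. The 2 calls of the class list became 1 with 10 counts in every library, 6 with DESeq2, 1 with roX1 as a covariate, 10 at the looser threshold and 0 to 3 with a library left out. The block changed no call of the factors.

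Changes of sign were as follows. With roX1 as a covariate the log2 fold change was -0.52 for mtDNA-helicase and -0.0202 for mTerf3. With a library left out it ran from -0.0170 to 0.25 for mtSSB, -0.165 to 0.37 for mtDNA-helicase and -0.17 to 0.0088 for mtTFB2. Among run shares, the difference for trnF to ND4L was -0.42 points and that for ND1 to the small rRNA 1.03 points over protein-coding genes only, and that for ND6 to trnS1 was 0.0058 points without tRNAs and -0.35 to 0.43 with a library left out. For these run shares the alternative changes which genes form the total; the other causes were not tested. Depth limits mtSSB (53 to 99 counts) and tam upon M1BP RNAi (27 to 34 counts). The planned search of promoter motifs was not run.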
